A study of Mus musculus with 9 samples.

Results

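Zfp352, Ubtfl1, Spz1, Zfp365, Sp110, Ddit4l, Arg2 and Tmem92 are mouse genes known for transient expression at the 2-cell stage and usually counted outside the multi-copy 2-cell families. These 8 genes were taken from a named list that was drawn up with earlier results of these data known. All 8 were found among the 24454 genes of the table. Their counts come from 9 RNA sequencing libraries, each made from 3 pooled 2-cell embryos of ICR mice, cultured in vitro. The 3 groups of 3 libraries were embryos given both a high glucose load and serum from rats that carried a drug labelled ZGW (called ZGW serum here), embryos with the high glucose load alone, and control embryos. The labels state neither the glucose concentration nor whether the other groups received drug-free serum, so serum and drug cannot be told apart in any difference that involves the ZGW serum group.

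The mouse embryonic genome is switched on in earnest at the 2-cell stage. A brief wave of transcripts appears at that time, many of them driven by retroviral repeats or by the homeobox factor DUX, and it is lost by the next cleavages. Zfp352, Ubtfl1, Spz1, Zfp365 and Sp110 encode nuclear or zinc-finger proteins. Ddit4l encodes an inhibitor of mTORC1 signalling, Arg2 the mitochondrial arginase, and Tmem92 a predicted single-pass membrane protein. Only 1 stage was sampled, so the transience of the 8 genes could not be checked here.

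RefSeq promoter windows of GRCm38.p6, which run from 250 bases before to 50 bases after an annotated transcription start, were at hand for 6 of the 8 genes. The windows of 3 genes are shown, 5′ to 3′ on the strand of the gene, picked as follows. Among the 7 expressed genes, Zfp352 had the level that spread most over the libraries, 7.93-fold from lowest to highest. Ubtfl1 had the lowest p-value between ZGW serum and high glucose. Sp110 reached its own highest level in the library where Zfp352 was lowest. In the Zfp352 window (chr4:90218570-90218869, plus strand) capitals mark TAATCC, the core letters bound by homeobox proteins of the CRX and OTX type. Sp110 has 2 windows, and only the first is shown (chr1:85603842-85604141, minus strand). It lies outside the positions given for the gene below. In it capitals mark TTTAATC on either strand, a string chosen after the sequences were seen. The Ubtfl1 window (chr9:18404168-18404467, plus strand) has neither string and is printed without capitals.
Zfp352: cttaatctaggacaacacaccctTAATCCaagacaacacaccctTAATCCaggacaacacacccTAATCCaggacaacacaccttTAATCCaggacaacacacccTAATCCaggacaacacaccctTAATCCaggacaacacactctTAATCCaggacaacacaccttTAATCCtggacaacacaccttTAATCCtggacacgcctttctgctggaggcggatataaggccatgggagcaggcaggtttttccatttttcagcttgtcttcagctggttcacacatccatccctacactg
Sp110: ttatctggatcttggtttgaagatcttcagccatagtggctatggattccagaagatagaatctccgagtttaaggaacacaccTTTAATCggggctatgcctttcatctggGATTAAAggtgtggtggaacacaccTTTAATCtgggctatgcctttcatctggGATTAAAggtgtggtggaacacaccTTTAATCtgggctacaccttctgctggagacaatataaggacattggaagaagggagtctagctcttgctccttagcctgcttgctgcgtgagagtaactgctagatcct
Ubtfl1: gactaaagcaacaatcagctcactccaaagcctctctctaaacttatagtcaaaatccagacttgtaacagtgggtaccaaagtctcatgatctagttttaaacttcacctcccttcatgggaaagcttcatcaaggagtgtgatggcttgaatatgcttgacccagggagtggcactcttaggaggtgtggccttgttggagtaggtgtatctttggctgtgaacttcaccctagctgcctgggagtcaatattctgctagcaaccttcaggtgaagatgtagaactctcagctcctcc

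The Zfp352 window held 9 copies of TAATCC, all on the plus strand, in a tandem array that ran from 227 to 61 bases before the start. Successive copies lay 20 or 21 bases apart. TAATCC occurred on either strand in 7.06% of 32851 promoter windows of the same length, and Zfp352 was the 1 window with 9 copies. The first Sp110 window held 5 copies of TTTAATC, 3 on the plus and 2 on the minus strand, between 166 and 60 bases before the start. The second (chr1:85598761-85599060), which covers the 5′ end of the positions given for the gene, held 0 copies. TTTAATC occurred in 3.27% of windows, and 2 windows held 5 copies. The strings overlap wherever TTTAATCC is written, as in 3 of the Zfp352 copies, and 2 of the Sp110 copies also contain TAATCC. The first 9 letters of the DUX motif, TGATTNAAT, were found on neither strand of the 7 windows of these genes and in 0.718% of all windows. AAGGTCA, the type of site bound by the nuclear receptor NR5A2, was also in none of the 7 and in 4.72% of all windows. TATAAA was in the Zfp365 and Ddit4l windows and in 13.6% of all, and CCAAT in both Sp110 windows and in 37.4% of all. These are matches of letters and not evidence of binding.

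**Figure D1:**
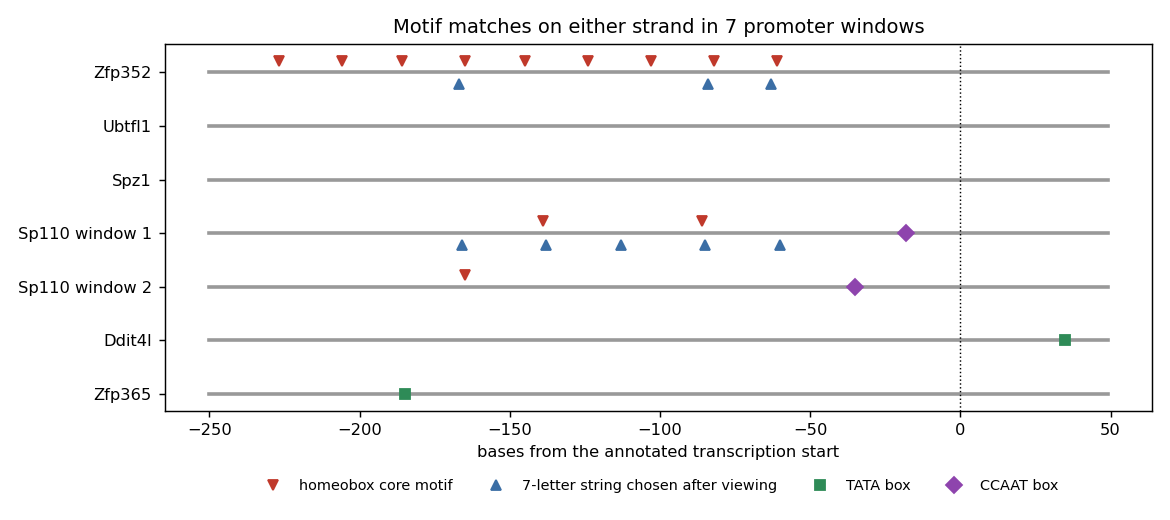
Positions of motif matches on either strand in 7 promoter windows of 6 genes, in bases from the annotated transcription start at 0; each grey line is 1 window, red triangles are TAATCC, blue triangles TTTAATC, squares TATAAA and diamonds CCAAT. The 9 red marks of Zfp352 form an array, and the Ubtfl1 and Spz1 windows have no mark.

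Zfp365 and Sp110 did not bear out the description of an expressed single-copy gene. Zfp365, known elsewhere as a DNA damage response and centrosome protein, was nearly unread in most libraries. It had 1, 2 and 0 counts with ZGW serum, 0, 85 and 12 counts under high glucose and 103, 0 and 0 counts in control. A count of 0 allows up to 3 counts, which is between 0.219 and 0.266 CPM in the 4 libraries at 0. Reads of Zfp365 therefore came mostly from 1 control library and 1 high glucose library. It passed the filter on low counts, as all 8 genes did, through 3 libraries, and its fold changes are not read as differences. Sp110, an interferon-inducible protein of nuclear bodies, shared 42.3% of its transcript stretches of 50 bases with 136 other genes of the GENCODE annotation, Gm16026 foremost with 26.7%. It also overlaps exons of the gene G530012D18Rik. Its counts are uncertain for that reason, since how the counting handled multi-mapping reads is not given in the sources used here. Such sharing was 7.10% for Zfp352, 3.36% for Ubtfl1, 1.93% for Tmem92, 0.175% for Ddit4l and 0 for Spz1 and Zfp365. Arg2 shared 21.2%, of which 17.1% lay in Vti1b, a gene on the opposite strand whose exons overlap those of Arg2.

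Library totals ran from 11934924 to 16916343 counts, and each of the 7 genes other than Zfp365 had at least 375 counts in every library. Levels are given as CPM, the counts of a gene divided by the library total after scaling with TMM factors. Oocyte and early embryo markers were abundant, with 14 of 16 over 10 CPM on average and a summed level from 18030 to 44830 CPM with ZGW serum, from 19130 to 25710 CPM under high glucose and from 22680 to 30340 CPM in control. Markers of cumulus and granulosa cells summed to between 8.33 and 23.0 CPM with ZGW serum, between 21.4 and 23.6 CPM under high glucose and between 26.6 and 44.9 CPM in control. Kitl was the 1 of these 16 markers over 10 CPM on average. Of the 16, 12 averaged under 1 CPM, Foxl2, Fshr and Cyp11a1 among them. The part of cumulus and granulosa cells in the results was not tested. Blood cell markers summed to between 329.3 and 530.2 CPM with ZGW serum, between 104.5 and 319.2 CPM under high glucose and between 239.8 and 368.8 CPM in control, with the globins Hba-a1 and Hba-a2 and Cd52 the 3 of 12 over 10 CPM; their part was not tested either. Later cleavage and blastocyst markers summed to between 45.9 and 67.3 CPM with ZGW serum, between 59.6 and 65.7 CPM under high glucose and between 57.6 and 97.8 CPM in control, with Krt18 and Gata4 the 2 of 10 over 10 CPM. ZGW serum replicate 3 held the highest oocyte marker sum and the highest blood marker sum of the 9 libraries. Results without it, and without control replicate 1, are given where they change.

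Per kilobase of exon, which allows levels of different genes to be set side by side, Sp110 ranked first in all 9 libraries. It averaged 286.6 ± 146.4 CPM per kb with ZGW serum, 253 ± 23.5 CPM per kb under high glucose and 216 ± 16.4 CPM per kb in control (SD, n = 3 each). Tmem92 followed at 99.0 ± 25.6 CPM per kb with ZGW serum, 158 ± 26.8 CPM per kb under high glucose and 148 ± 20.6 CPM per kb in control. Arg2 stood above Tmem92 in high glucose replicate 1, at 216.1 against 185.4 CPM per kb, and Spz1 did in ZGW serum replicate 3, at 92.7 against 80.9 CPM per kb. Arg2, Spz1, Zfp352 and Ddit4l also exchanged places between libraries, so the order from Tmem92 to Ddit4l did not hold beyond the spread. Ubtfl1 ranked seventh in all 9 libraries, at 10.7 ± 1.79 CPM per kb with ZGW serum, 30.4 ± 15.4 CPM per kb under high glucose and 24.5 ± 3.94 CPM per kb in control, and Zfp365 ranked eighth. Lengths are those of GENCODE exons, and the length of Sp110 carries the same doubt as its counts.

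**Figure D2:**
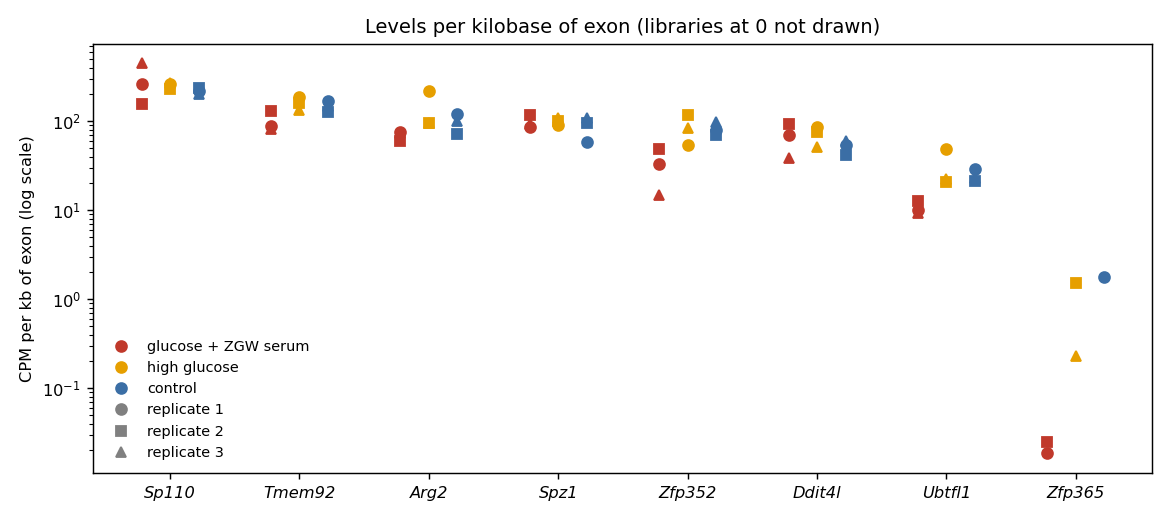
Level of each gene per kilobase of exon (CPM per kb, log scale), with 1 point for each library, colours for the groups and shapes for the replicate numbers; libraries at 0 are not drawn. Sp110 is uppermost and Ubtfl1 and Zfp365 lowest in every library.

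ZGW serum was set against high glucose alone to ask what the serum changed in embryos under a glucose load. Zfp352, Ubtfl1, Arg2 and Tmem92 had lower TMM-scaled levels with ZGW serum, each without overlap between the 2 groups. Spz1, Sp110 and Ddit4l overlapped between the groups. None of the 8 genes passed the quasi-likelihood test of edgeR after Benjamini-Hochberg adjustment, which called 0% of the 16964 genes tested, while 1473 (8.68%) had an unadjusted p under 0.05 and DESeq2 called 241. Because the 8 genes were chosen with earlier results of these data known, their counts beside all genes are a description and not a test. At an unadjusted p under 0.05, 4 of the 8 genes were lower, against 4.89% of all genes. Groups did not overlap, with ZGW serum lower, in the same 4 of 8 genes, against 8.26% of all genes. On library totals without TMM factors, a scaling compared after the data were seen, this held for 2 of 8, Ubtfl1 and Arg2, against 7.21% of all genes. The median log2 fold change of the 7 genes that averaged 10 CPM or more was -0.68, with 6 of 7 below 0, beside a median of 0.00 over all genes. In pools of embryos, fewer embryos that express a gene and less RNA per embryo cannot be told apart.

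Zfp352 (chromosome 4, 90218820 to 90225702, GRCm38) encodes a zinc-finger protein and is a common marker of the 2-cell state. It had 74.7, 110.3 and 33.3 CPM with ZGW serum, against 124, 264 and 190.4 CPM under high glucose. The highest ZGW serum library lay just below the lowest high glucose library, and ZGW serum replicate 3 was far below the rest. On library totals that order turned, with 122.8 CPM in ZGW serum replicate 2 and 117.3 CPM in high glucose replicate 1. The log2 fold change was -1.40 ± 0.43 (SE), a 2.65-fold lower level, with an adjusted p of 0.465 by edgeR and an unadjusted p of 0.00742. Without ZGW serum replicate 3 it was -1.03, and leaving out other libraries gave values down to -1.83.

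Ubtfl1 (chromosome 9, 18404418 to 18413177) encodes an HMG-box protein related to the nucleolar factor UBF and needed in mouse embryos around implantation. It had 45.0, 56.0 and 40.6 CPM with ZGW serum, against 214, 91.1 and 99.98 CPM under high glucose. All 3 ZGW serum libraries lay well below the lowest high glucose library, and high glucose replicate 1 was above the other two. The log2 fold change was -1.51 ± 0.36 (SE), a 2.86-fold lower level, with an adjusted p of 0.370 by edgeR and an unadjusted p of 0.00155. DESeq2 gave -1.53 with an adjusted p of 0.0126, a lower call that it made for 0.914% of the 16964 genes and for no other of the 8. DESeq2 gave an adjusted p to 16090 of those 16964 genes. Without high glucose replicate 1 the log2 fold change by edgeR was -1.02, with an unadjusted p of 0.00624.

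Arg2 (chromosome 12, 79130777 to 79156301) encodes the arginase that splits arginine into ornithine and urea in mitochondria. It had 108.1, 86.3 and 104.0 CPM with ZGW serum, against 309, 137 and 137 CPM under high glucose. High glucose replicate 1 was the highest of all 9 libraries, and the groups did not overlap. The log2 fold change was -0.97 ± 0.36 (SE; adjusted p = 0.519 by edgeR, unadjusted p = 0.0212), and it was -0.47 without that library, with an unadjusted p of 0.146. The unadjusted p was also above 0.05 without ZGW serum replicate 2 (0.0655) and by limma-voom (0.0585). Vti1b, whose exons overlap those of Arg2 on the other strand, had 48.9, 42.9 and 61.0 CPM with ZGW serum, against 102.0, 49.2 and 69.8 CPM under high glucose. It too was highest in high glucose replicate 1, and the groups overlapped. Its log2 fold change was -0.53 ± 0.34 (SE; adjusted p = 0.698 by edgeR), and without a known strand setting reads in the overlap cannot be told apart.

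Tmem92 lies on chromosome 11, from 94777217 to 94782703. It had 192.0, 280.5 and 177 CPM with ZGW serum, against 405, 346 and 288 CPM under high glucose. ZGW serum replicate 2 came within reach of the lowest high glucose library, and on library totals it was higher, at 312.4 CPM with ZGW serum and 280.9 CPM in high glucose replicate 3. The log2 fold change was -0.68 ± 0.26 (SE), with an adjusted p of 0.533 by edgeR and an unadjusted p of 0.0254. That unadjusted p was above 0.05 when any of 3 libraries was left out: 0.0800 without high glucose replicate 1, 0.0775 without the first ZGW serum library and 0.0909 without the third. Gm11544, with which Tmem92 shares 1.93% of its stretches, had 553.5, 717 and 358 CPM with ZGW serum, against 1005, 1045 and 940.1 CPM under high glucose, also without overlap (log2 fold change -0.88 ± 0.26, SE; adjusted p = 0.448 by edgeR).

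The other 3 expressed genes showed no common direction. Spz1 (chromosome 13, 92574636 to 92576172) encodes a leucine-zipper transcription factor first described in the testis. It had 132, 179 and 143 CPM with ZGW serum, against 139, 155 and 167 CPM under high glucose. The groups lay on top of each other, with a log2 fold change of -0.02 and a 95% interval from -0.65 to 0.60. Sperm and male germ cell markers summed to no more than 37.1 CPM in any library, below the level of Spz1 alone in each. Sp110 (chromosome 1, 85576899 to 85598817) had 502, 297 and 853 CPM with ZGW serum, against 506, 435 and 519.6 CPM under high glucose. ZGW serum replicate 3 was the highest and replicate 2 the lowest of all 9 libraries. The log2 fold change of Sp110 was 0.18 (95% interval from -0.56 to 0.91), and it was -0.26 without ZGW serum replicate 3. Ddit4l (chromosome 3, 137621612 to 137628333), the mTORC1 inhibitor, had 192.0, 253 and 105.6 CPM with ZGW serum, against 234, 204 and 139.7 CPM under high glucose. Its highest and lowest libraries both belonged to the ZGW serum group, and its log2 fold change was -0.07 (95% interval from -0.82 to 0.69), or 0.23 without ZGW serum replicate 3.

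**Figure D3:**
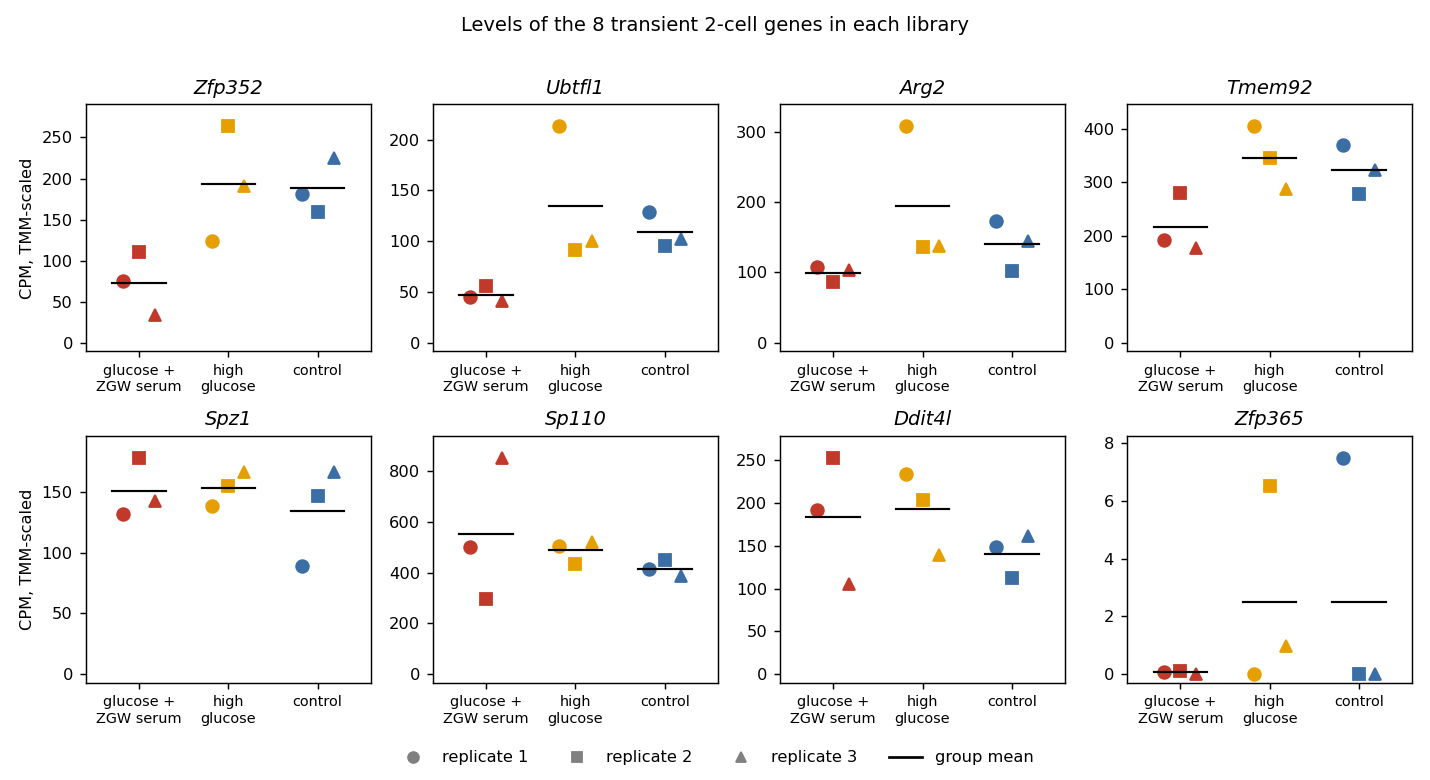
CPM of each of the 8 genes in all 9 libraries, with groups from left to right ZGW serum, high glucose and control, shapes for the replicate numbers and a line at each group mean; each panel has its own axis from 0. Zfp352, Ubtfl1, Arg2 and Tmem92 lie lower with ZGW serum than under high glucose, and Sp110 and Ddit4l spread widest with ZGW serum.

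High glucose was set against control to ask what glucose loading changed. None of the 8 genes was called, as was true of 0% of genes by edgeR with adjustment (1253 had an unadjusted p under 0.05, and DESeq2 called 129). None of the 8 had an unadjusted p under 0.05, against 7.39% of all genes, and none had groups without overlap, against 6.91% of genes lower and 6.84% higher under high glucose. All 7 genes other than Zfp365 had a log2 fold change above 0, with a median of 0.23 beside -0.02 over all genes. Zfp352 averaged 192.7 ± 70.1 CPM under high glucose and 188.7 ± 33.6 CPM in control (SD, n = 3 each), a log2 fold change of 0.03 with a 95% interval from -0.89 to 0.95. Ubtfl1 averaged 134.9 ± 68.3 CPM under high glucose and 108.6 ± 17.5 CPM in control, with a log2 fold change of 0.31, which was -0.18 without high glucose replicate 1. Arg2 averaged 194.2 ± 99.0 CPM under high glucose and 140.1 ± 35.8 CPM in control, with a log2 fold change of 0.47 that was -0.03 without the same library. The positive values of Ubtfl1 and Arg2 thus rested on high glucose replicate 1, and that of Tmem92, 0.10 in full, was -0.03 without it. Ddit4l averaged 192.6 ± 48.2 CPM under high glucose and 140.8 ± 25.2 CPM in control, a log2 fold change of 0.45 (95% interval from -0.31 to 1.21) that stayed positive in all 17 alternatives. These reuse the same libraries, and some leave out only a ZGW serum library, which can hardly change this value.

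ZGW serum was also set against control, to ask how far treated embryos stood from embryos without glucose loading. This comparison shares the ZGW serum libraries with the first, so its values are given beside them and not as a second line of evidence. With adjustment edgeR called 0% of genes and none of the 8, while 1673 genes (9.86%) had an unadjusted p under 0.05 and DESeq2 called 348. At an unadjusted p under 0.05, 3 of the 8 genes were lower, against 5.65% of all genes, and 2 of the 8 were lower without overlap, against 7.30% of genes (2 of 8 against 5.98% on library totals). These 2 were Zfp352, which had 74.7, 110.3 and 33.3 CPM with ZGW serum, against 182, 159 and 225 CPM in control, and Ubtfl1. Zfp352 had a log2 fold change of -1.37 ± 0.43 (SE; adjusted p = 0.403 by edgeR, unadjusted p = 0.00837). Ubtfl1 had 45.0, 56.0 and 40.6 CPM with ZGW serum, against 128.3, 94.9 and 103 CPM in control. Its log2 fold change was -1.20 ± 0.36 (SE; adjusted p = 0.402 by edgeR, unadjusted p = 0.00653), and DESeq2 called it at an adjusted p of 0.0499, as it called 1.47% of the 16964 genes lower. DESeq2 gave an adjusted p to 14487 of those 16964 genes. When control replicate 1 was left out along with ZGW serum replicate 3, the log2 fold change of Ubtfl1 was -0.94 by edgeR, with an unadjusted p of 0.0643. Without ZGW serum replicate 3 alone it was -1.08 (unadjusted p = 0.0257 by edgeR). Without control replicate 1 alone it was -1.07 (unadjusted p = 0.0231 by edgeR).

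Tmem92 was the third gene below an unadjusted p of 0.05 against control, at 0.0489, and it was below 0.05 in 9 of 17 alternatives. The p was 0.135 without control replicate 1, 0.157 without ZGW serum replicate 3 and 0.131 without ZGW serum replicate 1. It had 192.0, 280.5 and 177 CPM with ZGW serum, against 369, 279 and 323 CPM in control, and ZGW serum replicate 2 overlapped the lowest control library (log2 fold change -0.58 ± 0.26, SE; adjusted p = 0.502 by edgeR). Arg2 averaged 99.5 ± 11.6 CPM with ZGW serum and 140.1 ± 35.8 CPM in control (SD, n = 3 each), and the groups overlapped (log2 fold change -0.49, 95% interval from -1.28 to 0.29). Spz1, Sp110 and Ddit4l had positive log2 fold changes of 0.17, 0.40 and 0.38, each with overlapping groups. Without ZGW serum replicate 3, Sp110 was at -0.03 and Ddit4l at 0.69, with an unadjusted p of 0.0492 for Ddit4l. Without ZGW serum replicate 2, Sp110 was at 0.67, with an unadjusted p of 0.0310.

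**Figure D4:**
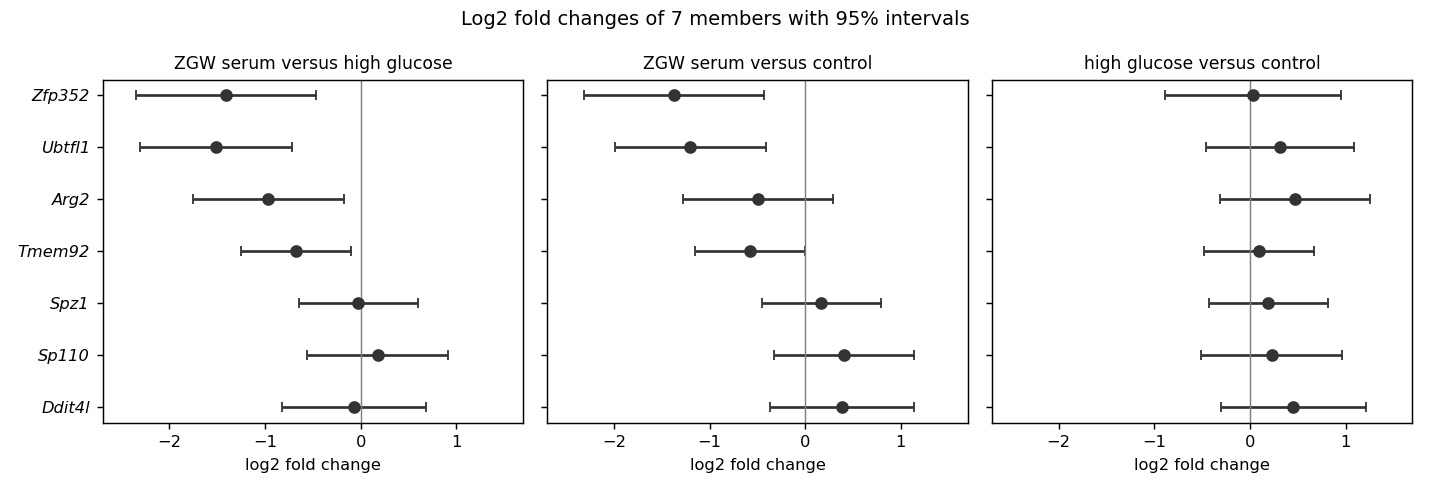
Log2 fold changes of 7 genes in the 3 comparisons, with points for edgeR's estimates and bars for 95% intervals from the standard error and the t distribution. The intervals of Zfp352, Ubtfl1 and Tmem92 lie below 0 in both comparisons of ZGW serum, that of Tmem92 against control only just, the interval of Arg2 lies below 0 against high glucose, and all 7 intervals span 0 between high glucose and control.

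The 7 expressed genes differed in how much they varied within groups. The biological coefficient of variation, edgeR's estimate of spread between libraries beyond counting error, was 0.263 for Tmem92, 0.278 for Spz1, 0.312 for Sp110, 0.321 for Ddit4l, 0.330 for Ubtfl1, 0.331 for Arg2 and 0.378 for Zfp352. The median over all genes tested, many of them at lower counts, was 0.679, and 16.6% of genes had a lower value than Zfp352, the most variable of the 7. Zfp365, at 1.81, had a higher value than 99.4% of genes. Set against genes that averaged 10 CPM or more, the picture differed for Zfp352: its pooled SD of log2 CPM within groups was 0.62, above their median of 0.54, and the other 6 lay between 0.28 and 0.46. The ZGW serum group held the widest spread for Zfp352, Sp110 and Ddit4l, with coefficients of variation in CPM of 53.0%, 51.1% and 40.4%. In contrast, Arg2 and Ubtfl1 spread most under high glucose, at 51.0% and 50.6%, and least or nearly least with ZGW serum, at 11.7% and 16.8%.

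Ubtfl1 varied together with Tmem92 and with Arg2 across libraries, and no pair that included Zfp352 passed. Of the 21 pairs among the 7 expressed genes, 2 passed an exact permutation test of Pearson's r on log2 CPM with Benjamini-Hochberg adjustment over the pairs. Ubtfl1 and Tmem92 had r = 0.91 over 9 libraries (exact permutation p = 0.000361, adjusted p = 0.00758) and a Spearman rho of 0.87 (exact permutation p = 0.00451, adjusted p = 0.0947). Without the 2 libraries farthest from the median of Ubtfl1, r was 0.85. Ubtfl1 and Arg2 had r = 0.86 (exact permutation p = 0.00237, adjusted p = 0.0249), rho = 0.82 (exact permutation p = 0.0108, adjusted p = 0.0968) and r = 0.77 without those 2 libraries. Both values include the difference between groups. Among deviations from the group means r was 0.72 for Ubtfl1 and Tmem92 (exact permutation within groups, unadjusted p = 0.0278). It was 0.83 for Ubtfl1 and Arg2 (same test, unadjusted p = 0.1065). After adjustment 0 of the 21 pairs passed. With so few libraries per group a lone pair could not pass this test whatever its r, so the 0 does not show that the relations were lost. Zfp352 and Tmem92 had r = 0.80 (exact permutation p = 0.0106, adjusted p = 0.0743), and r was 0.09 without ZGW serum replicates 1 and 3, on which it rested. Zfp352 and Sp110 ran in opposite directions, with r = -0.65 (exact permutation p = 0.0754, adjusted p = 0.231), and r was 0.29 without the same 2 libraries. Among deviations from the group means their r was -0.89 (exact permutation within groups, unadjusted p = 0.0278, adjusted p = 0.267). By the same measure Ddit4l and Tmem92 had r = 0.86 (same test, unadjusted p = 0.0417, adjusted p = 0.267). Larger within-group values were thus not confined to the pairs of Ubtfl1.

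**Figure D5:**
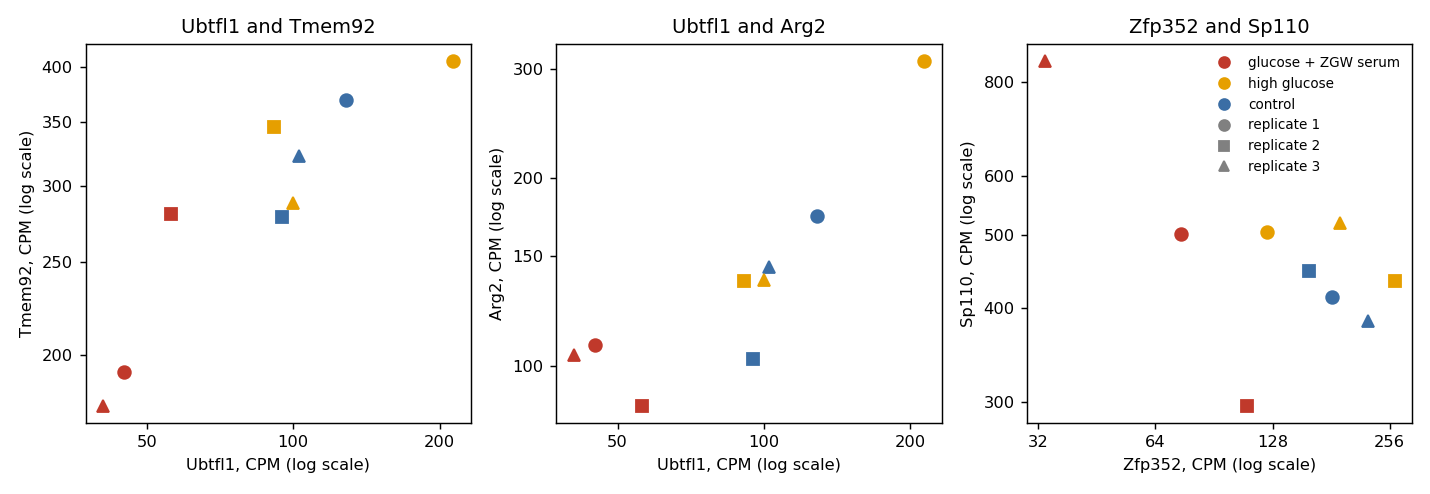
CPM of pairs of genes in each of the 9 libraries on log scales, with Ubtfl1 against Tmem92, Ubtfl1 against Arg2 and Zfp352 against Sp110; colours are groups and shapes replicate numbers. In the first 2 panels the ZGW serum libraries lie at the low end of Ubtfl1 and high glucose replicate 1 at the high end of both genes; in the third, ZGW serum replicate 3 has the lowest Zfp352 and the highest Sp110.

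Among 6913 named genes that averaged 10 CPM or more, those whose log2 CPM most resembled each gene over the 9 libraries were found by Pearson's r, given as a description only. The closest were Trim43b (r = 0.97), Stac2 (0.95) and Pabpc1 (0.95) for Zfp352. For Ubtfl1 they were Galm, Sptssa and Hnrnpk (0.97, 0.97 and 0.96). For Tmem92 the closest was Tdpoz3 (0.99), a member of a multi-copy 2-cell family, followed by Zcrb1 (0.97) and Zfp800 (0.95). For Arg2 they were Lrrcc1, Galnt3 and Bmp5 (0.95, 0.95 and 0.94), and for Spz1 Kif27, Bmp6 and Adgra3 (0.97, 0.97 and 0.96). For Sp110, Myl12a and Btf3l4 are given (0.95 and 0.94), and for Ddit4l March7, Smek2 and Hsp90aa1 (0.89, 0.88 and 0.88). A highest r is found for any gene when this many candidates are searched over 9 libraries.

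The multi-copy genes of the same stage (Zscan4, Usp17-like, Tdpoz, Tcstv, Eif1a-like and Pramef members) and a list of regulators of the 2-cell programme were set beside the 8 genes. Both lists were chosen with earlier results of these data known, so their counts are a description and not a test. Of 31 multi-copy genes tested, 30 had a lower level with ZGW serum than under high glucose, 13 at an unadjusted p under 0.05 and 0 after adjustment, with a median log2 fold change of -0.80. Over all genes tested 49.9% were lower in that comparison and 8.68% had an unadjusted p under 0.05. Those shares were 51.0% and 7.39% between high glucose and control, and 50% and 9.86% between ZGW serum and control. Between high glucose and control 25 of the 31 had a positive value (median 0.34, 1 at an unadjusted p under 0.05 and 0 after adjustment), and between ZGW serum and control 25 had a negative one (median -0.74, 9 at an unadjusted p under 0.05 and 0 after adjustment). The comparisons share libraries, so these counts are not separate evidence. The multi-copy genes of lowest p were the deubiquitinase genes Usp17le, at 3.37 ± 1.97 CPM with ZGW serum and 28.6 ± 12.9 CPM under high glucose (SD, n = 3 each; adjusted p = 0.370 by edgeR), and Usp17lc, at 15.9 ± 0.311 CPM with ZGW serum and 65.8 ± 28.1 CPM under high glucose (adjusted p = 0.370 by edgeR). The 1 with a positive value was Gm20767, at 447 ± 135.1 CPM with ZGW serum and 421.8 ± 65.0 CPM under high glucose. Their summed level ran from 16340 to 45710 CPM with ZGW serum, from 44180 to 59000 CPM under high glucose and from 39160 to 58670 CPM in control, and the library with the lowest sum, ZGW serum replicate 3, was also that with the lowest Zfp352, Ubtfl1 and Tmem92. Reads shared within these families make single values uncertain. Of 34 regulators tested, 27 had a negative value with ZGW serum against high glucose (median -0.36), 2 at an unadjusted p under 0.05 and 0 after adjustment, so the unadjusted count was below the share of all genes. The regulators of lowest p were Nelfa, a subunit of the negative elongation factor, at 25.9 ± 10.4 CPM with ZGW serum and 56.1 ± 30.7 CPM under high glucose (SD, n = 3 each; adjusted p = 0.569 by edgeR), and Rif1, a replication timing factor that represses 2-cell genes in mouse embryonic stem cells, at 314 ± 113.8 CPM with ZGW serum and 515 ± 49.3 CPM under high glucose (adjusted p = 0.574 by edgeR). Against control 23 of 34 had a negative value (median -0.23), 2 at an unadjusted p under 0.05 and 0 after adjustment. Those 2 were Sumo2 and Dppa4. Sumo2, a modifier whose attachment to chromatin proteins restrains 2-cell genes in mouse embryonic stem cells, averaged 175.5 ± 47.3 CPM with ZGW serum and 488 ± 155 CPM in control (SD, n = 3 each; adjusted p = 0.368 by edgeR). Dppa4, a chromatin factor that activates 2-cell genes in mouse embryonic stem cells, averaged 21.8 ± 15.2 CPM with ZGW serum and 82.9 ± 32.8 CPM in control (SD, n = 3 each; adjusted p = 0.403 by edgeR). Between high glucose and control the regulators had 17 of 34 positive values, with a median of 0.03, 2 at an unadjusted p under 0.05 and 0 after adjustment. Sumo2 was 1 of these, already lower under high glucose alone, at 257.2 ± 120.1 CPM against 488 ± 155 CPM in control (adjusted p = 0.649 by edgeR). The other, Setdb1, was higher, at 60.19 ± 11.65 CPM under high glucose and 35.75 ± 8.33 CPM in control (adjusted p = 0.676 by edgeR).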

How the data were processed

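The authors deposited raw counts per gene symbol, not normalised, for 9 libraries. Per the submitters' processing notes, Trim Galore and the build mm10 were used. For the aligner, counter, annotation, strand setting and multi-mapping reads, the choice is not given in the sources used here. Groups and replicate numbers came from the labels. Nothing there says that pools came from separate matings, so p-values measure the spread between these pools. Replicates of a group all differed beyond sampling noise.

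Genes were tested with the quasi-likelihood method of edgeR 4.0.16 in R 4.3.3, on all 9 libraries in 1 fit, with TMM factors, a minimum count of 10 and Benjamini-Hochberg adjustment over 16964 genes at a threshold of 0.05. It was tested on simulated data. Standard errors (SE) by edgeR were computed from the log2 fold change and the F statistic of its test. Log2 CPM used a prior count of 2. Alternatives were RLE factors, DESeq2 1.42.0, limma-voom (limma 3.58.1), 2 other filters, fits of the 2 groups compared, a replicate block and leaving out libraries. A fit without both control replicate 1 and ZGW serum replicate 3 was added after the data were seen, as were overlaps on library totals.

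The 8 genes and the lists were chosen with earlier results of these data known. All 8 are named. Genes alike are the 3 of highest r that averaged 10 CPM or more (1 of them is not reported here), and of the pathway lists those of lowest p are named. Positions, lengths and shared stretches of 50 bases came from GENCODE M21 (GRCm38, the assembly mm10 names), and promoters from RefSeq.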

Additional observations from a re-analysis of the deposited data

How the results depend on the processing

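No paired fit was used in the report, because the labels give the shared replicate numbers no meaning. Deviations of same-numbered libraries correlated between -0.04 and 0.20 over 6943 genes (median 0.06). Those of differently numbered libraries ran lower, from -0.17 to 0.08 (median -0.04), and 7 of 9 libraries correlated best with one of their own number. Deviations cancel out within a group, so values for same and different numbers are not independent, and their difference was not tested. With the replicate block edgeR called 0 genes in each comparison, as without it, and Ubtfl1 was at -1.42 with ZGW serum against high glucose. In the 17 alternatives of each comparison, Zfp352, Ubtfl1, Arg2 and Tmem92 kept their negative sign with ZGW serum against high glucose, and against control. The alternatives reuse the same libraries, and some leave out only a library of the group not compared, which can hardly change a sign. DESeq2 called 241 genes for ZGW serum against high glucose, 129 for high glucose against control and 348 for ZGW serum against control, against 0 by edgeR in each, and 1 of the 8 genes, Ubtfl1, in the first and the last. For ZGW serum against control limma-voom, no filter and a filter of 10 counts in 6 libraries each called 1 gene, Paip1, with log2 fold changes of -2.57, -2.63 and -2.60. On deviations from group means 0 pairs of genes passed, against 2 in the main test, but a lone pair could not pass that permutation within groups. On library totals without TMM factors, 2 of the 8 genes were lower with ZGW serum than under high glucose without overlap, against 4 with them.

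Signs turned as follows. For ZGW serum against high glucose, Ddit4l was 0.0176 by limma-voom, and Spz1 was 0.0063 with the stricter filter and 0.0099 with 2 groups; without control replicate 1 and ZGW serum replicate 3, Spz1 was 0.0479, Sp110 -0.25 and Ddit4l 0.24. With 1 library left out, Spz1 ran from -0.16 to 0.0627, Ddit4l from -0.37 to 0.23 and Sp110 from -0.26 to 0.48. For high glucose against control, Zfp365 was -0.0171 with RLE factors, -0.0171 by DESeq2 and -0.0022 with 2 groups. Zfp352 was -0.0551 with the block. Without both libraries Zfp352 was -0.0022 and Spz1 -0.0423. With 1 library left out, Zfp352 ran from -0.30 to 0.27, Ubtfl1 from -0.18 to 0.51, Spz1 from -0.0359 to 0.34, Arg2 from -0.0303 to 0.66, Tmem92 from -0.0296 to 0.20 and Zfp365 from -2.38 to 8.09. For ZGW serum against control, without both libraries Zfp365 was 3.53 and Sp110 -0.0374. With 1 library left out, Spz1 ran from -0.0628 to 0.32, Sp110 from -0.0341 to 0.67 and Zfp365 from -5.69 to 3.02. The cause was not tested. Zfp365 has too few reads for its sign to be read. Floors cover counting error only. Intervals cover only the spread between these pools, as edgeR estimated it in 1 fit of all 9 libraries with information shared across genes.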
